A study of Mus musculus with 2 samples.

Results

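The genes described here encode the lectin-like and activating receptors by which natural killer (NK) cells recognise other cells, measured in mouse spleen. They were the 10 genes Klrb1c, Klrd1, Klrk1, Klra8, Klra3, Klre1, Klrg1, Klrc1, Ncr1 and Cd244, found among the array's probes through the accession each probe carries. Probes matched 9 of the 10, with 12 probes in all. Klra3 had no matched probe, so its expression was not analysed here, and it enters only the count of promoters. All 9 passed the scanner software's call for a signal well above background on 1 array or both, and they are 9 of 13714 named genes that did. Cd244 is listed as Cd244a in the current RefSeq names.

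Spleen RNA was hybridised to 2 one-colour Agilent arrays, 1 for each genotype of Loxl3, a lysyl oxidase gene known for acting on collagen and elastin. The wild-type array holds RNA labelled Loxl3+/+ and the other holds RNA labelled Loxl3-/-. Both are labelled as from healthy, untreated male mice, with the spleen taken fresh. Strain, age, the number of animals per RNA and the form of the Loxl3 deletion are not given in the sources used here. The question of the design is how gene expression in the spleen depends on Loxl3. With 1 array per group there is no replicate and no test, and every difference describes these 2 arrays alone.

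NK cells decide whether to kill by adding up signals from activating and inhibitory surface receptors. In mice most of the lectin-like ones are encoded side by side in the NK gene complex, a gene cluster on chromosome 6, the chromosome of Loxl3. Many activating receptors have no signalling tail of their own and work through adaptor proteins such as DAP12 (Tyrobp) and DAP10 (Hcst), while inhibitory ones carry tail motifs that recruit the phosphatases SHP-1 (Ptpn6) and SHP-2 (Ptpn11). In the spleen these receptors sit on a minority of cells, and several are also found on activated or memory CD8 T cells. In RNA from a whole spleen, fewer cells of a type and less RNA per cell cannot be told apart.

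Of the 9 receptor genes, 7 were higher and 2 were lower on the knockout-labelled array after scaling. The inhibitory receptor gene Klrg1 was the 1 receptor gene at 2-fold, at 0.477 times its wild-type level. The activating receptor genes Klrk1 and Ncr1 were 1.62 and 1.65 times their wild-type levels, and Cd244 was at 0.645 times. The remaining members had smaller differences, or in the case of Klrc1 a bound that is not firm. Differences are log2 values, knockout-labelled minus wild type, after each array was scaled to its 75th percentile. The value after ± is the software's error of the spots, propagated to the log2 difference, and it leaves out the spread between mice.

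These counts are read against all genes. At 2-fold or more, 4.83% of the 13714 genes differed, 2.57% higher and 2.26% lower, beside 1 receptor gene, which was lower. At 1.5-fold or more 17.5% differed, 8.04% higher and 9.47% lower, beside 3 receptor genes higher and 2 lower, with the bound of Klrc1 among the 3. A difference over 2 times its error was found for 27.3% of all genes, 9.98% higher and 17.3% lower. Among the receptors Klrk1 and Ncr1 were higher and Klrg1 and Cd244 lower by that measure. A difference above 0 was found for 40.8% of all genes and for 7 of the 9. The median over the 9 was 0.25, beside −0.09 over all genes. No test was made of these counts.

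**Figure D1:**
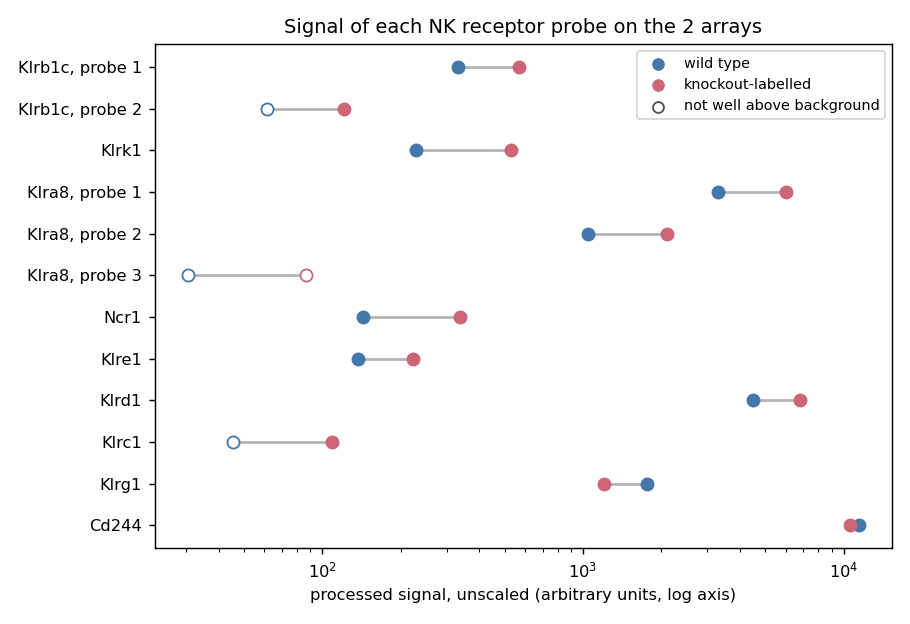
Processed signal of each of the 12 receptor probes on the wild-type (blue) and knockout-labelled (red) array, before scaling, on a log axis. Open circles were not well above background. The unscaled signal of 7 genes is higher on the knockout-labelled array, whose 75th percentile was also higher (1400.02 against 974), and that of Klrg1 and Cd244 is lower.

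Of the 5 members at 1.5-fold or more, the promoters of Klrk1, Klrc1, Ncr1 and Cd244 are shown, and that of Klrg1 was not used here. They are shown because Runx factors, of which Runx3 is known for NK cell development, have a short binding core that can be looked for directly. Each runs from 250 bases before to 50 bases after the gene's start in RefSeq (GRCm38.p6), with capitals marking the core TGTGGT on either strand. Klrk1 lies at chr6:129623815-129624114 on the minus strand, Klrc1 at chr6:129678924-129679223 on the minus strand, Ncr1 at chr7:4337465-4337764 on the plus strand, and Cd244 at chr1:171558943-171559242 on the plus strand.
Klrk1: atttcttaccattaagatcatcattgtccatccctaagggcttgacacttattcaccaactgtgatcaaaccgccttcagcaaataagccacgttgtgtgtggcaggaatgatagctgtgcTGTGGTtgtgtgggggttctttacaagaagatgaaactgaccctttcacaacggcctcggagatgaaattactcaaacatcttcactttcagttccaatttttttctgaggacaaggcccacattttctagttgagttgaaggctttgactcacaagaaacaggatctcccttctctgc
Klrc1: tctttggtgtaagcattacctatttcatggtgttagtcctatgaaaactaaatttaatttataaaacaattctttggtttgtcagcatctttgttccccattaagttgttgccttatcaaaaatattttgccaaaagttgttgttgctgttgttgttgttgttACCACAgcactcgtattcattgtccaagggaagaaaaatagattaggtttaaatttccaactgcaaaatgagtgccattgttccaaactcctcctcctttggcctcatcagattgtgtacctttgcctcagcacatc
Ncr1: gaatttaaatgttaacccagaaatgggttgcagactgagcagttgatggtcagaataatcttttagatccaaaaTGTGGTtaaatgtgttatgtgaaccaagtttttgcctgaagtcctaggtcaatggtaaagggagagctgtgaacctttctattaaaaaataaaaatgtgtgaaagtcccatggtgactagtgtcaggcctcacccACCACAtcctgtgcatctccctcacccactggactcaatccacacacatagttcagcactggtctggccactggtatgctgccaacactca
Cd244: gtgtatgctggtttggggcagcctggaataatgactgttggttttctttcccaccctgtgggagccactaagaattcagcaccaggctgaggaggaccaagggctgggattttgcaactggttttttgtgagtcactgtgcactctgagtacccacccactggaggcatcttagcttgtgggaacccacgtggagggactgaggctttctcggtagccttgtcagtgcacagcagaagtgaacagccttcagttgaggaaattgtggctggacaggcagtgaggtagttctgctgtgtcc
The core occurred 1 time in Klrk1, 1 time in Klrc1 and 2 times in Ncr1, and it is not in this window of Cd244. Of the 8 members with a promoter in the table, 5 held it (Klrb1c, Klre1, Klrk1, Klrc1 and Ncr1), and 16.9% of 27025 promoters did. The T-box core GGTGTGA, of the family of Tbx21 and Eomes, was in none of the 8 and in 3.96% of all promoters, on either strand, and the letters of the 2 cores can overlap. Both motifs were chosen with the members' promoters in view, and a match describes letters and no bound site.

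Among the activating receptors, Klrk1 encodes NKG2D, which binds stress-induced relatives of MHC class I. It had signals of 229 (wild type) and 532 (knockout-labelled). The difference after scaling was 0.69 ± 0.21, more than 3 times its error. Ncr1 encodes NKp46, a receptor nearly restricted to NK cells and related innate lymphocytes. Its signals were 143 and 338, in the same order, and the difference was 0.72 ± 0.24. Both rest on a single probe with 1 spot on each array.

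Klra8 encodes Ly49H, the activating receptor for a protein of mouse cytomegalovirus. The gene is carried by C57BL/6 mice and is absent from several other laboratory strains. Its brightest probe had signals of 3303 and 6019, and a second probe had 1048 and 2107. Both were well above background on both arrays, with differences of 0.34 ± 0.20 and 0.48 ± 0.20. The third probe, at 30.6 and 86.8, passed the background call on neither array. Klra genes are close copies of each other, and the probe sequences were not used here, so signal from relatives of Klra8 in these probes was not examined.

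Klrb1c encodes NK1.1, an activating receptor used as the standard NK marker in C57BL/6 mice. Its probe for NM_001159904 had signals of 331 and 566, a difference of 0.25 ± 0.22. Its probe for NM_008527 had 61.4 and 121 and passed the background call only on the knockout-labelled array. It was 1.37-fold higher there after scaling, against its own dim wild-type signal. Neither difference was more than 2 times its error. Klre1 encodes a chain that pairs with Klri1 or Klri2 to form an inhibitory or an activating receptor. It had signals of 137 and 222 and a difference of 0.18 ± 0.27, within its error.

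CD94, encoded by Klrd1, pairs with NKG2 proteins and presents them at the surface, where the pair reads the MHC class I molecule Qa-1 (H2-T23). Klrd1 had signals of 4490.1 and 6824 and differed by 0.08 ± 0.20, less than its error. Klrc1 encodes the inhibitory partner NKG2A. It had signals of 45.6 and 109 and passed the background call on the knockout-labelled array alone. Its bound there was 1.67-fold higher by the scanner's processed signal. Taken against its own dim wild-type signal, this equals the plain difference of 0.74 ± 0.46, less than 2 times its error. This bound is not firm, since another background correction (normexp) put the difference at 0.03.

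Klrg1 encodes an inhibitory receptor for cadherins, carried by mature NK cells and by effector CD8 T cells. It had signals of 1762 and 1207. The difference was −1.07 ± 0.21, more than 5 times its error, and 1.83% of all genes were at or below it. Its single probe read lower on the knockout-labelled array even before scaling, although that array was brighter as a whole. With scaling on probes above background on both arrays the difference was −0.92, and with normexp −0.94, so the 2-fold mark was missed under both. Klrg1 is on chromosome 6, outside the NK gene complex as delimited below.

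Cd244 encodes 2B4, a receptor of the SLAM family that binds CD48 and can activate or inhibit depending on its adaptors. Its signals were 11437 and 10604, and the difference was −0.63 ± 0.20, more than 3 times its error. Bright genes as a class read lower on the knockout-labelled array after scaling. Among 686 genes as bright as Cd244 the median was −0.29, and with the trend of difference on signal removed Cd244 was at −0.37.

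**Figure D2:**
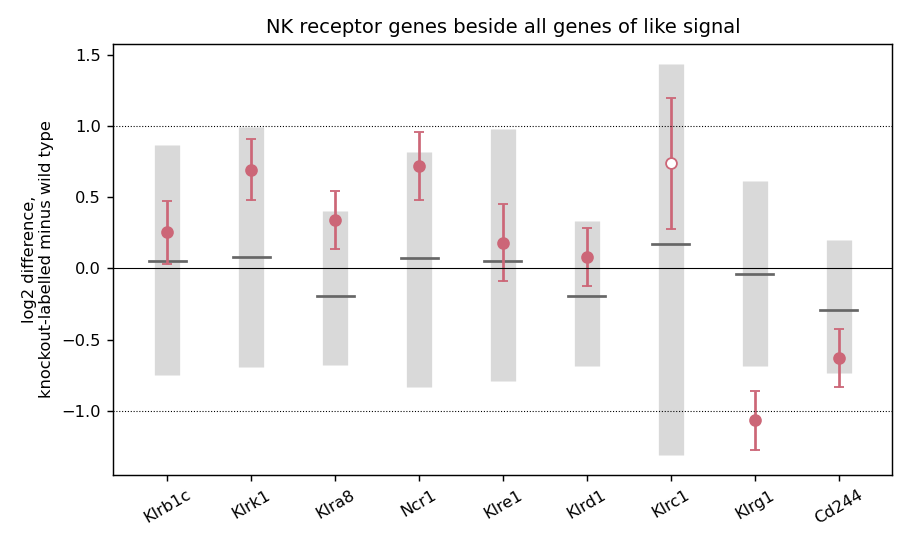
Log2 difference (knockout-labelled minus wild type) of the 9 receptor genes, with the scanner software's error as bars. Grey bands span the 5th to 95th percentile of genes in the same of 20 bins of mean signal, grey lines are those genes' medians, dotted lines mark 2-fold, and the open circle for Klrc1 is a lower bound. Klrg1 is the only point outside its band.

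The difference between the arrays depended on signal, and this touches every receptor gene. In 20 bins of mean signal, 60.8% of genes were above 0 in the dimmest bin and 6.12% in the brightest. The bin medians for the 9 members ran from 0.17 for Klrc1 to −0.29 for Cd244. Set beside genes of like signal, Klrg1 lay below the 5th percentile of its bin (−0.69). The other 8 lay between the 5th and 95th percentiles of theirs. Klra8, at 0.34 where the 95th percentile was 0.41, and Ncr1, at 0.72 where it was 0.82, were nearest the upper edge. With the trend removed, 7 of 9 were still above it, Klrk1 at 0.63, Ncr1 at 0.64 and Klra8 at 0.51, and Klrg1 was at −1.01. Over all genes 6772 of 13714 were above it. So were 5 of 10 NK cell markers, some of them receptor genes described here, and 7 of 10 T cell markers. The counts were 7 of 7 for B cell, 6 of 7 for macrophage and 7 of 7 for exocrine pancreas markers. They were 3 of 5 for type 1 innate lymphoid cell, 2 of 5 for erythroid, 0 of 5 for platelet and 0 of 7 for granulocyte precursor markers.

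The remaining genes of the NK gene complex were looked at in chromosomal order, from Klrb1a to Klra2 in the RefSeq table. Of 92 genes in that stretch 29 were measured, 23 of them well above background on both arrays. In all 20 were above 0 and 9 below, with a median of 0.18, and 6 members lie among them, all above 0. The genes not above background on both arrays passed on the knockout-labelled array alone, and all of those were above 0. Without those members 14 of 23 were above 0, with a median of 0.13, and 18 of these 23 passed on both arrays. The others of the 23 entered only through the array where they read higher. All of them are among the 14, which raises that count and the median. Chromosome 6 outside the complex had a median of −0.10 over 692 genes, with 276 above 0. There 661 of the 692 passed on both arrays, so the 2 sets differ in this respect. Many genes of the complex are dim, and with the trend removed the median over the 23, those genes included, was 0.09.

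**Figure D3:**
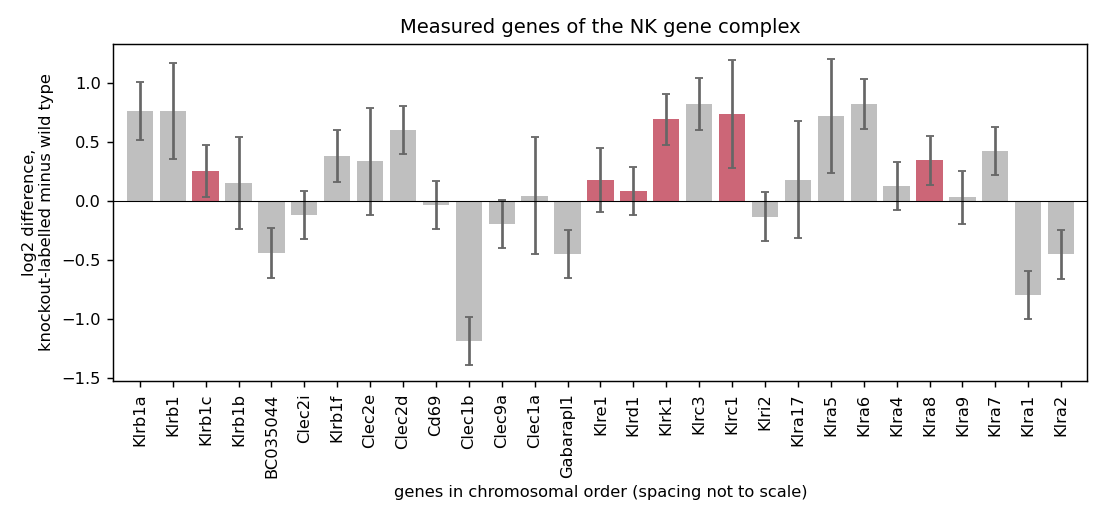
Log2 difference (knockout-labelled minus wild type) of the 29 measured genes between Klrb1a and Klra2, in chromosomal order, with the scanner software's error as bars and the receptor genes described here in red. In all 20 genes are above 0 and 9 below, from −1.19 at Clec1b to 0.82 at Klrc3. The genes that passed the background call on the knockout-labelled array alone are all among those above 0.

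Only Clec1b passed 2-fold in the complex, at −1.19 ± 0.20, with its other probes at −1.01 and −0.80. It encodes CLEC-2, a receptor of platelets, and 4 of 5 platelet marker genes were also at least 2-fold lower; their part in the value of Clec1b was not tested. The largest differences above 0 were Klrc3, encoding the NKG2E partner of CD94, at 0.82 ± 0.22, and Klra6 at 0.82 ± 0.21. Both other probes of Klrc3 were not well above background. Of 9 measured Klra genes 7 were above 0 and 2 below, ranging from −0.80 (Klra1) to 0.82 (Klra6), names given here only as the ends of that range. Some of those 7 passed the background call on the knockout-labelled array alone. Of Klre1's 2 partner genes, Klri2 was at −0.14 ± 0.21, and Klri1 passed the background call on neither array.

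Adaptors and signalling genes showed no member at 2-fold by its brightest probe among 23 measured, with 11 above and 12 below 0 and a median of −0.01. Dimmer probes of Grb2 and Pik3cd did pass 2-fold. Grb2, a signalling adaptor gene, had probes at −0.10 (the brighter) and 1.19. With the trend of difference on signal removed, 18 of the 23 were above it, beside 6772 of 13714 over all genes. The median was 0.19, beside −0.005 for all genes. Only 20 of the 23 passed the background call on both arrays. Cd247, Plcg1 and Vav2 entered through the knockout-labelled array alone, and they raise the counts above 0 and above the trend. Tyrobp, the adaptor of Ly49H, was at 0.30 ± 0.20 and Hcst, the adaptor of NKG2D, at −0.42 ± 0.20. NKp46 signals through Fcer1g and Cd247. Fcer1g was at 0.04, and Cd247 passed the background call only on the knockout-labelled array. For 2B4, the adaptor genes Sh2d1a (SAP) and Sh2d1b1 (EAT-2) were at −0.28 and 0.44. The phosphatase genes used by inhibitory receptors, Ptpn6 and Ptpn11, were at −0.16 and −0.49. The other large differences above background on both arrays were Pik3cd, a lymphocyte phosphoinositide kinase gene, at 0.80 and Inpp5d, the phosphatase gene SHIP, at 0.52. The dimmer probes of Pik3cd were at 0.49 and 1.23.

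Of the ligands' genes 14 were measured, 5 above and 9 below 0, with none at 2-fold and a median of −0.19, which was 0.04 with the trend removed. Cdh1 encodes E-cadherin, a ligand of KLRG1. Its probe, printed 10 times, was dim, with signals of 94.3 (wild type) and 221 (knockout-labelled). The difference was 0.71 ± 0.29, with an SD of 0.152 between spots. Cdh2, encoding the ligand N-cadherin, had probes at −0.31 ± 0.21 (the brighter) and −0.43. Beside Klrg1 at −1.07, the gene of one cadherin ligand was thus above 0 and that of the other below. Cd48, the ligand gene of 2B4, had probes at 0.13 (the brighter) and −0.15. H2-T23, read by CD94 pairs, was at −0.39, H2-K1 at −0.67 (SD 0.138 over 10 spots) and B2m, the shared class I light chain gene, at −0.61. These class I genes are among the brightest, and with the trend removed H2-T23 was at 0.04, H2-K1 at −0.15 and B2m at −0.15. Cfp, encoding properdin, a reported ligand of NKp46, was at −0.21 ± 0.20. Of NKG2D's ligand genes, Raet1e passed the background call on the wild-type array alone and is counted among the 9 below 0. H60b, H60c and Ulbp1 passed on neither array.

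Further surface receptors of NK cells had a median of 0.02 over 33 genes, and 1 gene passed 2-fold in each direction. Il2rg, the shared cytokine receptor chain used for IL-2 and IL-15, was higher by 1.43 ± 0.20 on a single probe. Il12rb1, a chain of the IL-12 receptor, had probes at −1.01 (the brighter) and −0.14. Those of Il15ra were at −0.93 and, for a dim probe, 0.15. Among 23 transcription factor genes of NK cells none passed 2-fold, and the median was 0.04, or 0.15 with the trend removed. Stat5a, a signalling factor of IL-2 and IL-15 receptors, was at −0.91, Tbx21, encoding T-bet, at −0.62 and Ikzf3, encoding Aiolos, at 0.54.

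Genes for killing and secretion mostly had values below 0. Of 24 cytotoxic effector genes 21 were below 0 and 3 above, none at 2-fold, beside 8125 of 13714 genes below 0 overall. Their median was −0.39, beside −0.09 for all genes. Gzmm, a granzyme gene, was at −0.91, Ifng at −0.90 and Cst7, an inhibitor of granule proteases, at −0.74. With the trend removed 19 of 24 were below it, beside 6942 of 13714 over all genes, and the median was −0.20.

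**Figure D4:**
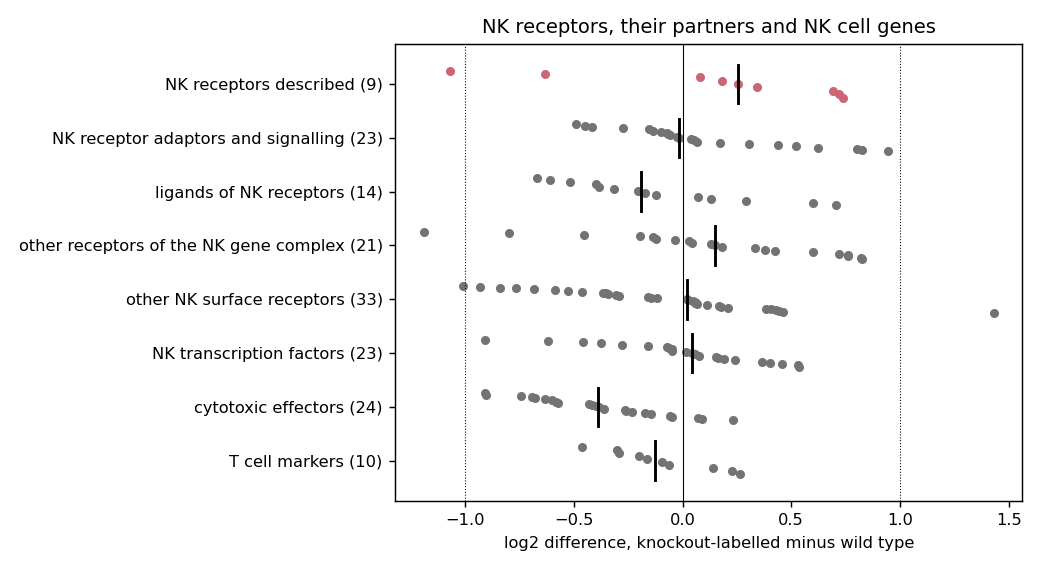
Log2 difference (knockout-labelled minus wild type) of each measured gene in the receptor set, in 6 related lists and in the T cell marker list, with the number of genes in parentheses and black bars at the medians. Dotted lines mark 2-fold. The cytotoxic effector genes lie mostly below 0 (median −0.39) and the receptors described mostly above (median 0.25).

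The cells behind these values were checked by markers. Of 11 NK markers 10 were measured, Itga2 having passed the background call on neither array. Those 10, which include 4 of the receptor genes, had 5 values above and 5 below 0, with a median of −0.03 beside −0.09 for all genes. All 4 receptor genes were among the 5 above 0. Of the markers outside the receptor set, Eomes, at 0.17, was above 0 and the rest were below, Nkg7 at −0.27 and Prf1 at −0.14 included. Their summed signal, in which Gzma and Il2rb weigh most, was 0.728 times the wild-type level after scaling, and that of all genes 0.800 times. The NK markers outside the receptor set with the largest differences were Il2rb at −0.84, Tbx21 at −0.62 and Gzma at −0.58. T cell markers, which bear on receptors shared with CD8 T cells, had a median of −0.13, with none of 10 at 2-fold. Of 5 markers of type 1 innate lymphoid cells, relatives of NK cells that also carry NKp46 and NK1.1, 2 were above and 3 below 0, with a median of −0.12. Itga1 had its brighter probe at 1.03 and the other at −0.11, and the brighter probe of Cxcr6 was at −0.76.

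Markers of several other cell types passed 2-fold on these arrays. Exocrine pancreas markers were at least 2-fold higher in 7 of 7 (median 4.21). Granulocyte precursor markers were at least 2-fold lower in 6 of 7 (median −2.28) and platelet markers in 4 of 5 (median −1.78). B cell and macrophage markers had medians of 0.22 and 0.06 with none at 2-fold, and among 5 erythroid markers Gata1 was at −1.12. The part of these cell types in the values of the receptor and ligand genes was not tested. The Loxl3 probe itself had signals of 117 and 125, a difference of −0.43 ± 0.29, so the array is called knockout-labelled.

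**Figure D5:**
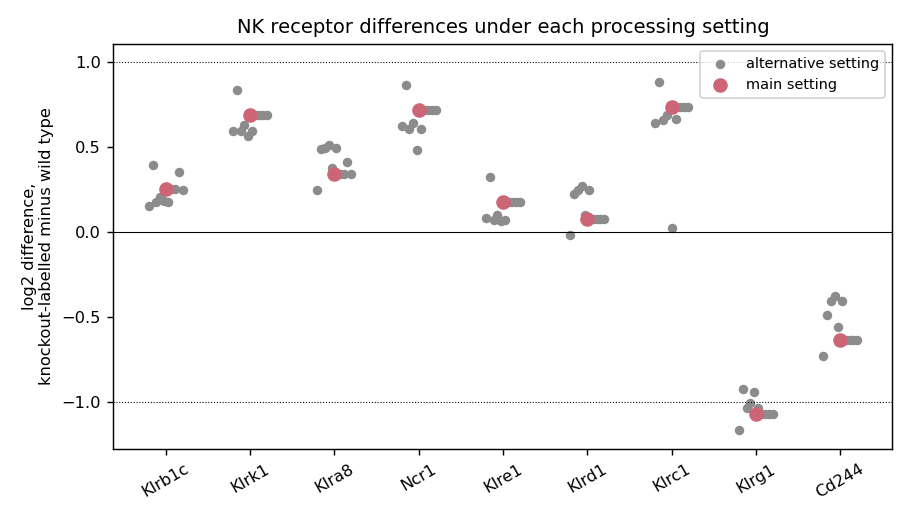
Log2 difference (knockout-labelled minus wild type) of the 9 receptor genes in the main setting (red) and under each alternative (grey), with dotted lines at 2-fold. Klrg1 runs from −1.16 to −0.92, Klrd1 crosses 0 (−0.01 to 0.27), and Klrc1 falls to 0.03 under normexp.

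The directions of 8 of the 9 genes held under the alternatives run. Klrk1 ran from 0.57 to 0.84 and Ncr1 from 0.48 to 0.86 over 10 alternatives, Klra8 from 0.25 to 0.51 and Klrb1c from 0.16 to 0.40. Klrg1 and Cd244 were below 0 under all 10. Klrd1 changed sign under 1 alternative, scaling on each array's median, and Klrc1 could be computed under 9.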

How the data were processed

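Total RNA of spleen was labelled with Cy3 and hybridised, 1 array per genotype, per the labels' protocols. The deposited scanner files hold linear intensity per spot, made with Agilent Feature Extraction 11.0.1.1 (protocol GE1_1100_Jul11, probe positions on mm9), per the file headers. Both arrays were on 1 slide and in 1 scan, per the file headers. The authors also deposited log2 values, with equal quantiles in both columns; their processing steps were not used here. Flags per spot, a code of another kind, came from the same software.

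Of 44397 spots on an array, 43020 were no controls; 110 and 132 outlier spots (wild type, knockout-labelled) were left out, and none was saturated. Log2 signals were averaged per probe (39420 probes), and each array's 75th percentile over them was subtracted, a shift of 0.52. Accessions matched RefSeq GRCm38.p6 for 27226 probes (20655 genes); that table gave names and gene order only, and promoter sequences came from RefSeq's. A gene was its brightest probe among those well above background on at least 1 array; 13033 genes passed on both. A gene passing on 1 array has a bound, taken against the dim probe's own signal or the lowest signal that passed on that array, whichever was higher. Counts at 2-fold include such genes.

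With 0 residual degrees of freedom no p-value was computed. Over 259 probes printed repeatedly, the SD of the log2 difference between spots had a median of 0.113; the number of arrays limits precision. The members, the 6 related and 9 marker lists (216 genes) and the settings were chosen with earlier results of these data known. The text names all members, each list's genes at 2-fold, its 3 largest differences above background on both arrays, and each receptor's adaptor and ligand genes. Likeness of pattern cannot be measured over 2 arrays. The calculation was tested on simulated data. Normexp (offset 50), quantile and loess (span 0.3) were run in R 4.3.3 with limma 3.58.1, normexp on the median signal, as the files hold no mean; the rest in Python 3.11.15.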

Additional observations from a re-analysis of the deposited data

How the results depend on the processing

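The number of receptor genes at 2-fold was 1 in the main setting. It was 0 with scaling on the probes detected on both arrays and 0 with normexp, and 5 at a 1.5-fold threshold. The related lists held 3 genes at 2-fold, and 6 with scaling on each array's median. Over all genes 662 passed 2-fold, against 337 with normexp, 1312 with no filter on dim probes (more genes were tested) and 2402 at 1.5-fold. The share of 2-fold genes that were higher in the knockout-labelled spleen was 53.2%, 41.3% with median scaling and 70.9% with scaling on probes detected on both arrays, which moved the median of all genes from −0.09 to 0.05. The receptors' median was 0.25 and ran from 0.10 (normexp) to 0.40 (probes detected on both arrays). Cd244 moved by more than its error under 3 settings, to −0.40 with quantile normalization, −0.40 with the deposited table and −0.37 with loess, and Klrc1 under 1. Why a value moved was not tested. Leaving out a replicate was not possible, and both arrays share a slide, so no slide block was fitted. No paired analysis was possible because each group has 1 array.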
